A study of Homo sapiens with 6 samples.

Results

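The miR-28 family comprises miR-28, miR-151 and miR-708, miRNAs whose hairpins arose from LINE-2 repeats. Its members were taken by name from the first column of both deposited count tables. They were hsa-miR-28-5p, hsa-miR-28-3p, hsa-miR-151a-5p, hsa-miR-151a-3p, hsa-miR-151b, hsa-miR-708-5p and hsa-miR-708-3p (written without the species prefix from here on), or 7 of the 2588 mature miRNAs listed. All 7 passed the filter on low counts, which kept 620 miRNAs. The miRNAs were measured by small RNA-seq in A549 cells, a human lung adenocarcinoma line, in which a lentiviral inducible shRNA against METTL1 had been switched on with doxycycline at 200 ng/ml for 5 days. METTL1 is a methyltransferase that makes internal N7-methylguanosine (m7G), best known from tRNA. Input libraries (total RNA, n = 3) were set against libraries of RNA pulled down by an antibody to m7G (m7G-RIP, n = 3). Each group came from its own count table, so any difference in library handling between them cannot be told apart from the antibody step. Both groups carried the METTL1 knockdown, so the comparison is of antibody-bound RNA with input in knockdown cells and not of cells with and without METTL1. The labels give a Caco-2 culture medium for the m7G-RIP samples although their titles and cell line field say A549. Nothing in the labels says that replicates came from separate cultures, so the p-values measure the spread between these libraries.

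LINE-2 elements are ancient retrotransposons that no longer move, and copies lying in opposite orientation can be transcribed into an RNA that folds back on itself. Such a hairpin is cut by DROSHA and then by DICER into a short duplex with a 5p and a 3p arm, either of which can be loaded into Argonaute, where its seed (bases 2 to 8) guides it to target mRNAs. miR-28 has been studied as a brake on growth in B cell lymphoma, and its arms have been given different roles in colorectal cancer. miR-151a lies in the gene of focal adhesion kinase and has been linked to the spread of liver cancer cells, and miR-708 has been linked to endoplasmic reticulum stress and to restraint of metastasis.

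The hairpins lie apart in the genome (GENCODE release 44, GRCh38). MIR28 is at chr3:188688781-188688866, within an LPP intron and transcribed in the same direction as LPP. MIR708 is at chr11:79402022-79402109, within a TENM4 intron and also in the direction of its host. MIR151A sits in a PTK2 intron in the direction of PTK2. MIR151B is at chr14:100109419-100109514, within an EVL intron but on the opposite strand. miR-151b and miR-151a-5p are near-identical copies, so their reads may be divided between both names, and the counts of miR-151b are uncertain for that reason.

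Mature sequences from RefSeq (GRCh38.p14) matched 3 of the 7 members. They are shown because the 3p arms of miR-28 and miR-708 resemble each other, while the seed of miR-708-5p recurs in a miRNA outside the family. Seeds are in capitals, 5′ to 3′.
miR-28-3p: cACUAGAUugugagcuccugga
miR-708-3p: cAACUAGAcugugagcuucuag
miR-708-5p: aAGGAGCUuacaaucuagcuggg
miR-3139: uAGGAGCUcaacagaugccuguu
They lie at chr3:188688834-188688855 on the plus strand for miR-28-3p, chr11:79402032-79402053 on the minus strand for miR-708-3p, chr11:79402077-79402099 on the minus strand for miR-708-5p and chr4:143343469-143343491 on the plus strand for miR-3139. miR-28-3p and miR-708-3p were identical at 17 of 21 aligned bases (81.0%). Their longest shared run was of 8 bases, at positions 9 to 16 of miR-28-3p and 10 to 17 of miR-708-3p, shown here in capitals.
miR-28-3p: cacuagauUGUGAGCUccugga
miR-708-3p: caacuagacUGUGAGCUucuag
Their seeds shared 6 bases when shifted by 1 position, so neither is the other's seed mate. miR-3139 was the other miRNA of the sequence table with the seed of miR-708-5p, and it had 5 counts in total RNA replicate 3 and 0 in every other library. No other miRNA of the table had the seed of miR-28-3p or miR-708-3p.

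The total RNA libraries held 9155690 to 10753443 counts and the m7G-RIP libraries 2649238 to 3106556. The members spanned levels from 79 counts for miR-151b, summed over the 3 total RNA libraries, to 228389 for miR-151a-3p. Levels are given as TMM-scaled CPM, counts over library sizes that were adjusted by edgeR's trimmed mean of M-values, and 3 counts were worth 0.339 to 0.394 CPM in total RNA and 0.803 to 0.942 CPM in m7G-RIP. Markers of other cell types were mostly absent. Of 5 blood cell miRNAs, 4 were at 0 in all libraries and miR-451a had 5 counts in m7G-RIP replicate 2, and the liver miRNA miR-122-5p was at 0 throughout. The muscle miRNA miR-1-3p had 69 to 88 counts in total RNA and 66, 260 and 2 counts in m7G-RIP replicates 1, 2 and 3, and miR-133a-3p had 20 counts in total RNA replicate 2, 114 in m7G-RIP replicate 2 and 0 elsewhere. Of 3 pluripotent cell miRNAs, 2 were at 0 throughout and miR-372-3p had at most 3 counts. Among epithelial miRNAs, miR-200b-3p was at 426 ± 8.63 CPM and miR-200c-3p at 84.9 ± 7.29 CPM in total RNA (SD, n = 3), and miR-141-3p had at most 6 counts.

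**Figure D1:**
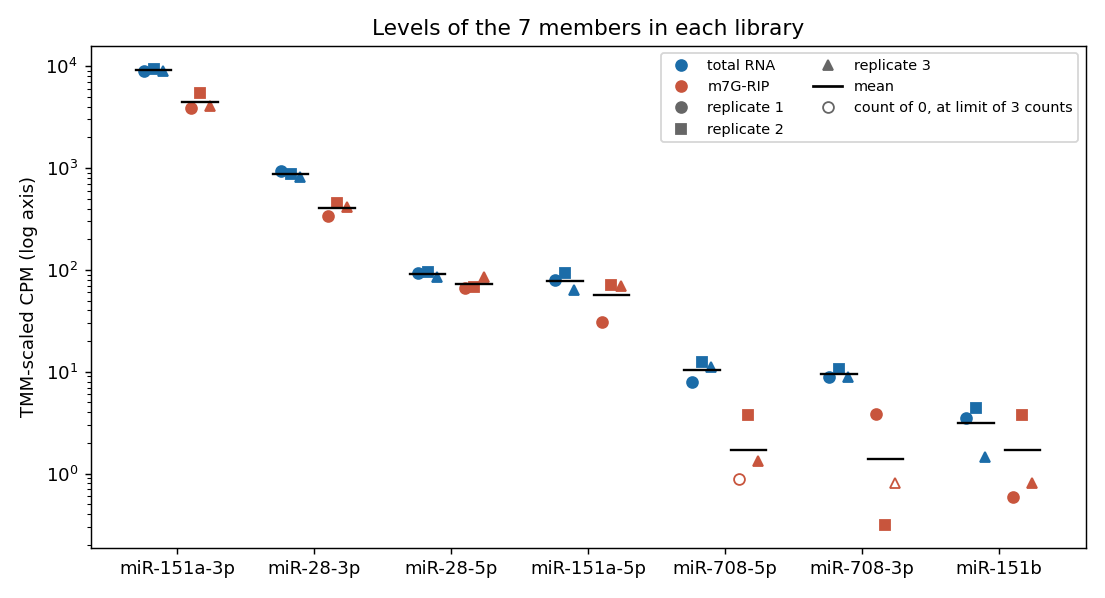
Level of each member in each library, in TMM-scaled CPM on a log axis, with members ordered by their mean in total RNA. Blue points are total RNA and red points m7G-RIP, marker shapes are replicates 1 to 3, black lines are means, and open markers are counts of 0 drawn at the level of 3 counts. miR-151a-3p and miR-28-3p sit lower in all 3 m7G-RIP libraries, and the points of miR-708 and miR-151b rest on few counts.

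Setting m7G-RIP against input asked which members the antibody recovered in larger or smaller proportion. The 3p arms of miR-28 and miR-151a, the most abundant members, were depleted in m7G-RIP, miR-28-3p by 2.17-fold and miR-151a-3p by 2.07-fold. No member was enriched (0 of 7) with edgeR's quasi-likelihood test, and 2 of 7 were depleted at an adjusted p under 0.05. Over all 620 miRNAs tested, 23.5% were enriched and 29.2% depleted, so the share of members depleted lay close to that of all miRNAs. The median log2 ratio of the members was -1.05, against -0.074 for all miRNAs tested. Every m7G-RIP library lay below every total RNA library for 5 of the 7 members, as it did for 36.5% of all miRNAs tested. The opposite order was seen for 0 of 7 members and for 29.5% of all miRNAs tested. These ratios compare antibody-bound RNA with input and do not measure expression. For the levels themselves, in bulk libraries, fewer cells expressing a miRNA and less of it per cell cannot be told apart.

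miR-151a-3p was the most abundant member and ranked 14 among all tested miRNAs in total RNA. It had 9043, 9430 and 9062 CPM in total RNA replicates 1, 2 and 3, and 3843, 5395 and 4080 CPM in m7G-RIP. The groups did not overlap, and m7G-RIP replicate 2, which also had the most reads of the muscle miRNAs, stood above the others of its group. The log2 ratio was -1.05 (SE 0.14, edgeR adjusted p 0.000196), and the miRNA ranked 22 in m7G-RIP.

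miR-28-3p came next, with 928, 874 and 824 CPM in total RNA and 341, 450 and 418 CPM in m7G-RIP. The groups did not overlap, and m7G-RIP replicate 2 was again the highest of its group. The log2 ratio was -1.12 (SE 0.14, edgeR adjusted p 0.000125), and the rank went from 62 in total RNA to 80 in m7G-RIP. Relative to the median of all miRNAs tested, the log2 ratio was -1.05 for miR-28-3p and -0.97 for miR-151a-3p. Both calls were kept in all alternative fits, where the log2 ratio was smallest in size with library size alone, at -0.57 and -0.50. Library size alone shifted the median over all tested miRNAs up by 0.55, and relative to that median the values were -1.05 and -0.98. Without m7G-RIP replicate 2 the log2 ratios were -1.37 for miR-28-3p and -1.38 for miR-151a-3p. That fit tested 778 miRNAs with a median of -0.33, against -0.074 over the 620 of the main fit. The medians are over different sets of miRNAs, so they do not show whether the whole scale had shifted. The part of the muscle miRNAs in these results was not tested.

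miR-28-5p, the arm of the MIR28 hairpin with the seed of miR-708-5p, had 93.5, 94.3 and 85.5 CPM in total RNA and 65.7, 67.8 and 84.9 CPM in m7G-RIP. The groups did not overlap, but total RNA replicate 3 and m7G-RIP replicate 3 nearly met. The log2 ratio was -0.32 (SE 0.19, edgeR adjusted p 0.189). It turned to 0.23 with library size alone and to 0.13 when library sizes left out the 10 most abundant miRNAs, while relative to the median of all miRNAs tested it was -0.25 under all 3 scalings. The member was past the threshold without m7G-RIP replicate 3, at -0.66 (edgeR adjusted p 0.0219). In that fit the median was -0.40 over 756 miRNAs, against -0.074 over the 620 of the main fit. Since the sets differ, the part of a shift in scale was not tested.

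miR-151a-5p, the minor arm of MIR151A, had 79.4, 92.2 and 63.2 CPM in total RNA and 30.9, 70.6 and 68.8 CPM in m7G-RIP. The groups overlapped, and m7G-RIP replicate 1 stood far below the other libraries. The log2 ratio was -0.46 (SE 0.32, edgeR adjusted p 0.259), and it was 0.075 with library size alone. Relative to the median of all miRNAs tested these values were -0.39 and -0.40. Without m7G-RIP replicate 2 it was -0.81 and without m7G-RIP replicate 3 it was -0.86, neither past the threshold.

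miR-708-5p had 70, 106 and 84 counts in total RNA and 0, 12 and 5 counts in m7G-RIP replicates 1, 2 and 3. At the mean TMM-scaled level of total RNA, 35.7, 33.5 and 39.3 counts would be expected in those m7G-RIP libraries, so each fell short. miR-708-3p had 79, 90 and 67 counts in total RNA and 13, 1 and 0 counts in m7G-RIP, where 32.2, 30.2 and 35.4 counts would be expected. For both arms every m7G-RIP library lay below every total RNA library in CPM.

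The log2 ratios of miR-708 were the lowest of the family, at -2.63 for miR-708-5p (SE 1.02, edgeR adjusted p 0.0566) and -2.77 for miR-708-3p (SE 1.15, edgeR adjusted p 0.0710). Neither was past the threshold in the edgeR test, while the DESeq2 Wald test called both depleted, with log2 ratios of -2.65 (adjusted p 0.0139) and -2.73 (adjusted p 0.0314). DESeq2 called 31.1% of all miRNAs tested depleted. Without m7G-RIP replicate 1, both were past the threshold, at -2.28 (edgeR adjusted p 0.0240) for miR-708-5p and -6.03 (edgeR adjusted p 0.00188) for miR-708-3p, and the latter rests on 1 and 0 counts and is no bound. Without m7G-RIP replicate 2, miR-708-5p was at -4.06 (edgeR adjusted p 0.0162).

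miR-151b was the scarcest member in total RNA, with 31, 37 and 11 counts there and 2, 12 and 3 counts in m7G-RIP. The groups overlapped in CPM, at 3.50, 4.40 and 1.45 in total RNA and 0.589, 3.77 and 0.803 in m7G-RIP. The log2 ratio was -0.86 (SE 0.97, edgeR adjusted p 0.479), and neither leaving out m7G-RIP replicate 2 (-2.28) nor total RNA replicate 3 (-1.33) took it past the threshold.

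**Figure D2:**
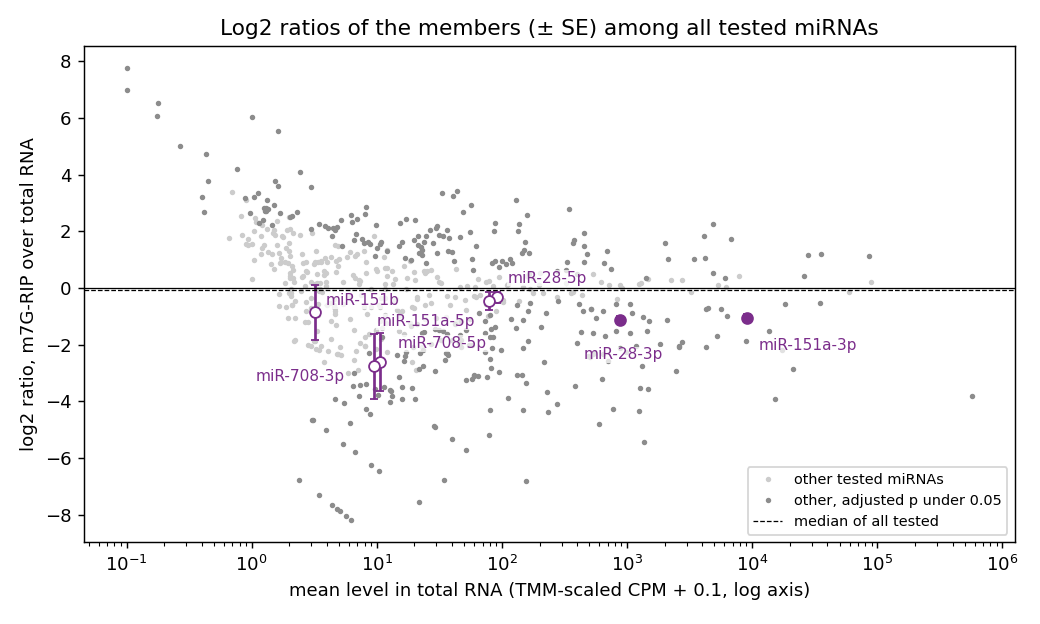
Log2 ratio of m7G-RIP over total RNA against the mean level in total RNA, in TMM-scaled CPM plus 0.1 on a log axis, for the 620 miRNAs tested. Purple points with bars of 1 SE are the members, filled where the edgeR adjusted p was under 0.05, grey points are the other miRNAs, and the dashed line is their joint median. All 7 members lie below the dashed line, with the filled points at -1.12 and -1.05.

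The order of levels in total RNA was miR-151a-3p, miR-28-3p, miR-28-5p, miR-151a-5p, miR-708-5p, miR-708-3p and miR-151b. In total RNA miR-28-5p at 91.1 ± 4.88 CPM and miR-151a-5p at 78.3 ± 14.5 CPM overlapped (SD, n = 3). There miR-708-5p at 10.5 ± 2.39 CPM and miR-708-3p at 9.47 ± 1.06 CPM also overlapped (SD, n = 3). In m7G-RIP the means of the first 4 members had this order, at 4439 ± 836, 403 ± 56.2, 72.8 ± 10.5 and 56.8 ± 22.4 CPM (SD, n = 3), with miR-28-5p and miR-151a-5p overlapping. The last 3 members there were at 1.38 to 1.72 CPM on average, and their order could not be told.

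The family took 0.838%, 0.862% and 0.835% of all counts in total RNA and 0.549%, 0.691% and 0.560% in m7G-RIP, which did not overlap. The difference in means was -0.245 percentage points (exact two-sided permutation p = 0.1, the smallest that 3 against 3 libraries can give). Without the 10 most abundant miRNAs in the total, the family took 3.82% ± 0.0945 of total RNA counts and 2.53% ± 0.346 in m7G-RIP (SD, n = 3). miR-151a-3p made up most of the family in both groups, at 89.6% ± 0.580 of its counts in total RNA and 89.1% ± 1.28 in m7G-RIP (SD, n = 3; exact permutation p = 0.7). The share of miR-28-5p in the family went from 0.889% ± 0.0358 to 1.5% ± 0.347 (SD, n = 3; exact permutation p = 0.1), without overlap between the groups. The share of miR-708-5p went the other way, from 0.102% ± 0.0220 to 0.0305% ± 0.0315 (SD, n = 3; exact permutation p = 0.1), also without overlap. These shares sum to a whole, and the log2 ratio of miR-28-5p itself was -0.32 with TMM scaling and 0.23 with library size alone.

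The arms of a hairpin come from a single transcript, and their ratio within a library does not depend on scaling between libraries. This ratio was used to ask whether the antibody recovered the arms of a hairpin unequally. In MIR28 the 5p arm held 9.15%, 9.74% and 9.40% of the reads of both arms in total RNA and 16.2%, 13.1% and 16.9% in m7G-RIP. The groups did not overlap, which held for 1 of the 3 member hairpins, and in 33.1% of all hairpins tested the m7G-RIP libraries were likewise all above. The 5p over 3p ratio was 1.74-fold higher in m7G-RIP, a change of 0.80 in log2 (SE 0.20, limma adjusted p 0.0131 over 139 hairpins with both arms tested). Over these hairpins the 5p arm gained in 25.2% and the 3p arm in 16.5%, with a median change of 0.40, and the change of MIR28 ranked 59 of 139 toward the 5p arm. The call was lost without total RNA replicate 1, with a change of 0.77 and an adjusted p of 0.0758 in limma.

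In MIR151A nearly all reads came from the 3p arm. Reads counted for its 5p arm may come in part from MIR151B, since miR-151b and miR-151a-5p are near-identical. The 5p arm held 0.871%, 0.969% and 0.693% in total RNA and 0.798%, 1.29% and 1.66% in m7G-RIP. The groups overlapped through m7G-RIP replicate 1. The change was 0.53 in log2 (SE 0.31, limma adjusted p 0.206). It was 0.82 without m7G-RIP replicate 1, where it passed the threshold (limma adjusted p 0.0385), and 0.29 without m7G-RIP replicate 3.

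In MIR708 the arms were near balance in total RNA, where the 5p arm held 47.0%, 54.1% and 55.6% of 149 to 196 reads per library. In m7G-RIP all 13 reads of replicate 1 came from the 3p arm, 12 of 13 reads of replicate 2 came from the 5p arm and all 5 reads of replicate 3 came from the 5p arm. The change was 0.46 in log2 (SE 2.06, limma adjusted p 0.874), with the m7G-RIP libraries on both sides of total RNA. It was 3.13 without m7G-RIP replicate 1 (limma adjusted p 0.0159), -0.78 without m7G-RIP replicate 2 and -0.98 without m7G-RIP replicate 3.

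**Figure D3:**
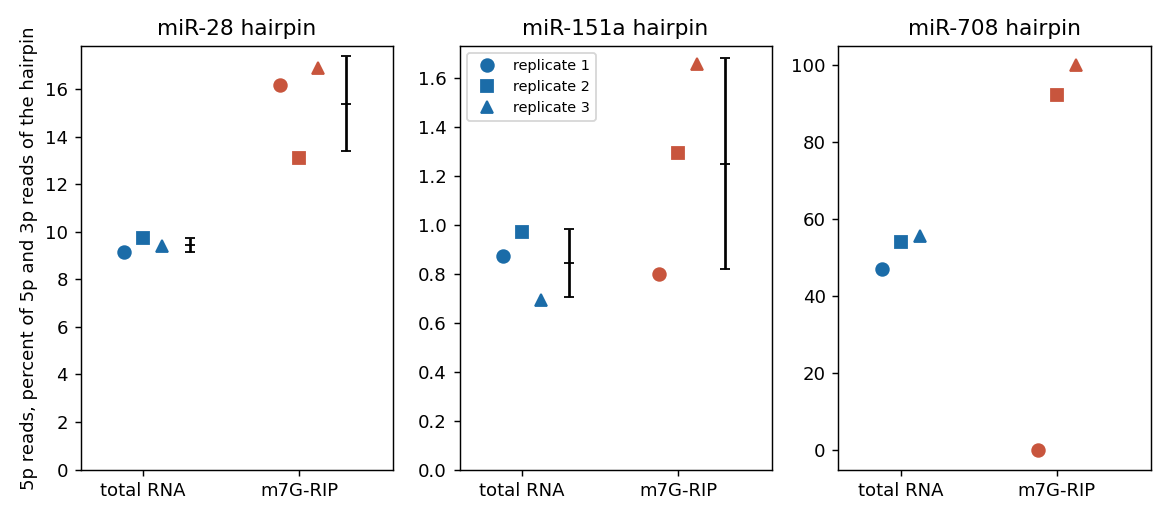
Share of 5p reads among the reads of both arms, in percent, for the 3 hairpins, with blue for total RNA, red for m7G-RIP and marker shapes for replicates. Black bars are the mean and SD (n = 3), left out for miR-708, whose m7G-RIP libraries lie at 0%, 92.3% and 100% on few reads, and the axes differ between panels. In miR-28 the 3 m7G-RIP libraries lie above 13%, and those of total RNA below 10%.

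**Figure D4:**
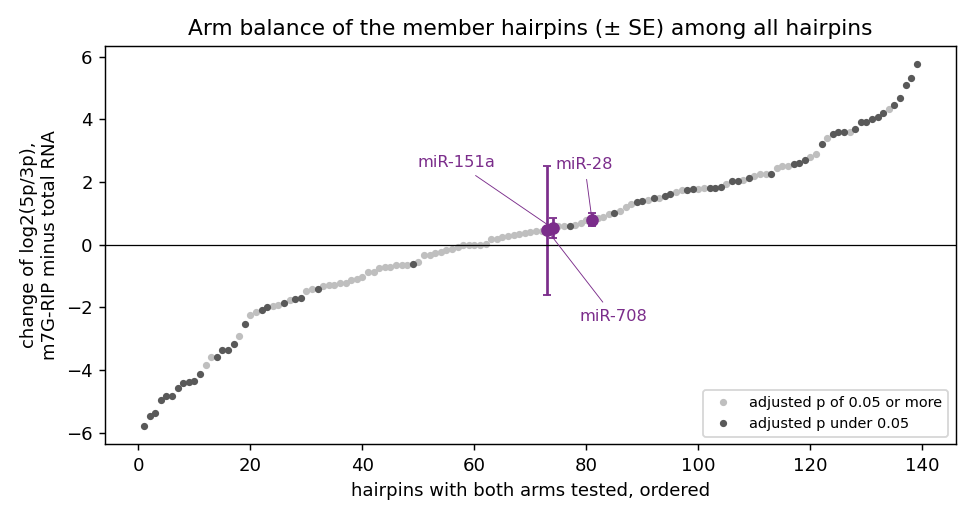
Change of log2 5p over 3p from total RNA to m7G-RIP for the 139 hairpins with both arms tested, ordered from low to high, with dark points for an adjusted p under 0.05. Purple points with bars of 1 SE are the member hairpins, which lie close together in the middle of the range, at 0.46 to 0.80.

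Members were also set against each other by their ratio within a library, for 7 pairs. Between miR-28-3p and miR-151a-3p the ratio was close in both groups. The count of miR-151a-3p was 9.74, 10.8 and 11.0 times that of miR-28-3p in total RNA and 11.3, 12 and 9.76 times in m7G-RIP. The log2 ratio of miR-28-3p over miR-151a-3p differed by -0.064 between groups (SE 0.10, exact two-sided permutation p = 0.5, adjusted over 7 pairs 0.7). This was within the spread between libraries.

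The ratio of the 5p arms of miR-28 and miR-151a also moved by less than that spread. miR-28-5p had 1.18, 1.02 and 1.35 times the counts of miR-151a-5p in total RNA and 2.12, 0.960 and 1.23 times in m7G-RIP, a difference of 0.21 in log2 (SE 0.36, exact permutation p = 0.8). It turned to -0.11 without m7G-RIP replicate 1.

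For miR-708-5p, which shares its seed with miR-28-5p, the ratio to that arm was further apart between groups. With 3 against 3 libraries the exact permutation test gives no p under 0.1, so no pair could pass a threshold of 0.05. Counts of miR-28-5p were 11.8, 7.48 and 7.74 times those of miR-708-5p in total RNA, 18 and 63.4 times in m7G-RIP replicates 2 and 3, and 223 against 0 in replicate 1. The difference was 3.12 in log2 with 0.5 added to each count (SE 1.39, exact permutation p = 0.1, the smallest possible, adjusted 0.35), and 2.32 with 2 added. Against miR-151a-5p the difference was 2.92 (SE 1.06, exact permutation p = 0.1, adjusted 0.35). In both pairs the groups did not overlap. For miR-708-3p the ratios to the other 3p arms overlapped between groups, since m7G-RIP replicate 1 lay within the total RNA range. miR-28-3p had 88.9 times the counts of miR-708-3p in that library against 81.7 to 104 times in total RNA. The differences were 2.79 (SE 1.53) against miR-28-3p and 2.85 (SE 1.48) against miR-151a-3p, each with an exact permutation p of 0.3.

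miR-151b had 0.0440, 0.0477 and 0.0229 times the counts of miR-151a-5p in total RNA and 0.0190, 0.0533 and 0.0117 times in m7G-RIP, a difference of -0.51 in log2 (SE 0.67, exact permutation p = 0.6).

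Base composition was included since m7G is a modified G and the study examined G content and runs of G in primary hairpins. The values here are of mature miRNAs, with ratios from METTL1 knockdown cells, so they are not a like measure. G made up 27.3% of miR-28-3p, 30.4% of miR-708-5p and 22.7% of miR-708-3p, against a median of 27.8% over the 557 tested miRNAs with a mature sequence (89.8% of those tested). The sequence of miR-708-5p printed above holds 7 G in 23 bases and 3 GG steps, and that of miR-28-3p 6 G in 22 bases and 1 GG step. Of the 557 miRNAs, 252 had as high a share of G as miR-708-5p or higher. Across them the log2 ratio rose with the share of G (Pearson r = 0.410, Spearman rho = 0.436). The correlation with C was -0.091, with A -0.212 and with U -0.196 (Pearson). These describe miRNAs measured in the same 6 libraries, whose bases sum to a whole, and are not tests.

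Of other LINE-2-derived miRNAs, only miR-95-5p, miR-95-3p and miR-325, fixed by name, were looked at, and they do not stand for the whole class. miR-95-5p and miR-325 were at 0 in all 6 libraries. miR-95-3p (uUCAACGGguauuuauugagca, seed in capitals, chr4:8005312-8005333 on the minus strand), which has a seed different from those printed for the family, had 38.5, 39.2 and 33.4 CPM in total RNA and 7.95, 9.73 and 3.75 CPM in m7G-RIP. The groups did not overlap, and the log2 ratio was -2.38 (SE 0.40, edgeR adjusted p 0.000974).

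The miRNAs nearest to miR-151a-3p in level and pattern over the 6 libraries, by Euclidean distance of log2 CPM, were miR-30d-5p at 1.11, miR-10b-5p at 1.25 and let-7g-5p at 1.36. miR-10b-5p went from 6308 ± 32.3 to 3204 ± 730 CPM (SD, n = 3), and its m7G-RIP replicate 2 was also the highest of its group, at 4044 CPM. The log2 ratio was -1.52 for miR-30d-5p (edgeR adjusted p 2.37e-06) and 0.031 for let-7g-5p (edgeR adjusted p 0.833), so the distance reflects level as well as the difference between groups.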

How the data were processed

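The deposited values are whole-number counts for each mature miRNA, not normalised by the authors. Per their methods, adaptors were trimmed with Trimmomatic, reads were aligned to GRCh38 with STAR, and mature miRNAs were counted with featureCounts on miRBase 22, while the processing notes list Bowtie2 in place of STAR. How reads with several alignments were counted is not given in the sources used here, which affects miR-151b and miR-151a-5p. RNA was decapped, heat-denatured, bound by the antibody and eluted with 7-methyl-GTP. No IgG libraries were analysed here, and without a measure of how much RNA the antibody pulled down, ratios are relative to other miRNAs.

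Groups and replicate numbers came from sample titles. The count test was edgeR 4.0.16 under R 4.3.3 (TMM, filterByExpr, robust quasi-likelihood F test, no block), with p-values adjusted by the Benjamini-Hochberg method over 620 miRNAs. Arm ratios, with 0.5 added to each count, were tested with limma 3.58.1 over 139 hairpins, and pairs and shares with exact permutation tests. DESeq2 1.42.0, limma-voom, other scalings and filters, leaving out single libraries and a replicate block were alternatives. Replicates differed by more than counting noise (chi-square per degree of freedom 22.2 to 112) and were kept separate. Reads carry no molecular identifiers, and the level worth 3 counts therefore reflects counting error only.

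The miRNAs named were the 7 members, others with a printed seed, 3 of LINE-2 origin, the 3 nearest to the most abundant member, and marker miRNAs of other cell types. The members and lists were chosen with earlier results of these data known. The edgeR and limma tests were run on simulated counts first.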

Additional observations from a re-analysis of the deposited data

How the results depend on the processing

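miR-28-3p and miR-151a-3p kept their depleted call in all 14 alternatives, and no member was enriched in any (0 of 7). With no filter 5 members were depleted, as were 14.9% of 1469 miRNAs. Beside the 3p arms of miR-28 and miR-151a these were miR-151a-5p at -0.77, miR-708-5p at -2.94 and miR-708-3p at -2.96 in log2. The median over the 1469 miRNAs was -0.80, near the value of miR-151a-5p. That median includes the scarce miRNAs that the filter had left out, so it is not comparable with the -0.074 of the main fit. With the DESeq2 Wald test 4 were depleted (miR-708-5p at -2.65 and miR-708-3p at -2.73), with 31.1% of all miRNAs. With limma-voom 4 were also depleted (-3.46 and -3.95), with 35.3% of all miRNAs and a median of -0.28. The cause was not tested. Library size alone turned miR-28-5p to 0.23 and miR-151a-5p to 0.075, and leaving the 10 most abundant miRNAs out of the library size turned miR-28-5p to 0.13. Under these settings the median over all tested miRNAs shifted up by 0.55 and 0.45. Requiring 10 counts in each of the 6 libraries, miR-151b and both arms of miR-708 had no value, and miR-151b had none without total RNA replicate 2.

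Across fits without 1 library, 2 to 4 members were depleted, with 4 without m7G-RIP replicate 1, which added both arms of miR-708. These fits called 24.9% to 31.5% of 594 to 778 miRNAs depleted, and their medians ran from -0.40 to 0.18. The log2 ratio ran from -0.66 to -0.32 for miR-28-5p, from -1.37 to -1.11 for miR-28-3p, from -4.06 to -2.28 for miR-708-5p and from -6.03 to -2.35 for miR-708-3p. The arm change ran from 0.71 to 0.93 for MIR28, from 0.29 to 0.82 for MIR151A and from -0.98 to 3.13 for MIR708. Between members, the difference ran from -0.15 to 0.00032 for miR-28-3p over miR-151a-3p and from -0.11 to 0.46 for miR-28-5p over miR-151a-5p. The family share of miR-151a-3p moved by -0.896 to 0.292 percentage points and that of miR-151b by -0.0147 to 0.00987, and by -0.00682 without total RNA replicate 3.

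Equal replicate numbers were not treated as pairs. Libraries sharing number 1, 2 or 3 deviated from their groups with correlations of -0.043, -0.101 and 0.064. Over 306 abundant miRNAs the correlations were 0.073, 0.078 and 0.098, and none of either set was beyond 0.101 in size. With the replicate block miR-28-3p had a log2 ratio of -1.13, miR-151a-3p of -1.06 and miR-708-5p of -3.21, and 2 members were depleted. The block left the edgeR call of every member and the limma call of every member hairpin as they were. For pairs and shares, sign flips over 3 replicate numbers give no p under 0.25, so the block could not change a call there. Restricting to mean counts of 100 or more gave a correlation with G of 0.40.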
